A study of Mus musculus with 33 samples.

Results

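The genes described here are 10 genes widely used as markers of macrophages: Csf1r, Cd14, Mrc1, Itgam, Lyz2, Cd68, Arg1, C1qa, C1qb and C1qc. They were picked by name, with their levels in these samples already known, so their levels and directions are a description. Each had exactly 1 row in each of the 4 expression tables, out of 27825 listed genes in every tongue table and 25965 in the table of sorted cells. The mice either carried a knockout of Zac1o, express the imprinted gene Zac1 (Plagl1) biallelically and are called biallelic, or were wild type. Whole tongues came from 3 biallelic and 3 wild type mice per stage (E13.5, P0, P20), and their RNA was sequenced after removal of ribosomal RNA. Costal chondrocytes came from 6 biallelic and 5 wild type embryos at E18.5. Rib cages were cleared of soft tissue and digested overnight with trypsin and collagenase II, and about 2000 live cells positive for both Cd24a and Cd200, a gate the labels call prehypertrophic, were sorted per library for SMART-seq2, which amplifies polyadenylated RNA. The labels call the samples biological replicates and give neither litter nor sex.

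Macrophages are phagocytes that settle in almost every tissue and clear dying cells and microbes. Most of them need the receptor kinase Csf1r, which binds the cytokines CSF1 and IL-34, and depend on the transcription factor PU.1, encoded by Spi1. The tongue holds resident macrophages, whereas cartilage matrix lacks blood vessels and holds few immune cells. Several of the 10 genes are shared with other cells, since Itgam, Lyz2 and Cd14 are also active in neutrophils and monocytes and Arg1 is also made outside the immune system.

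Promoter sequences are shown for C1qb and C1qc, which followed each other most closely over the animals, and for Mrc1 and Itgam, whose levels relative to Csf1r differed between the tongue and the sorted cells. Promoters of 6 of the 10 genes (Mrc1, C1qb, C1qc, Itgam, Lyz2 and Cd68) were taken from RefSeq's table for GRCm38.p6. Each ran from 250 bases before to 50 bases after the annotated start. The promoters of Csf1r, Cd14, Arg1 and C1qa were not examined. Capitals mark GAGGAAG, the core of the PU.1 site, or its reverse complement CTTCCTC, and the sequences run 5′ to 3′ on the strand of the gene.
C1qb (chr4:136886151-136886450, minus strand): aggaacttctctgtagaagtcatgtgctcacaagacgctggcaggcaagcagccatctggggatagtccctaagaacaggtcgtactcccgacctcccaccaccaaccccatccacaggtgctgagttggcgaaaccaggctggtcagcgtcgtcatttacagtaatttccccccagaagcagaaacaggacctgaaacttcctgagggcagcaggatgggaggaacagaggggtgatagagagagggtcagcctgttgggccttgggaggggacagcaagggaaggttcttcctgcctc
C1qc (chr4:136892865-136893164, minus strand): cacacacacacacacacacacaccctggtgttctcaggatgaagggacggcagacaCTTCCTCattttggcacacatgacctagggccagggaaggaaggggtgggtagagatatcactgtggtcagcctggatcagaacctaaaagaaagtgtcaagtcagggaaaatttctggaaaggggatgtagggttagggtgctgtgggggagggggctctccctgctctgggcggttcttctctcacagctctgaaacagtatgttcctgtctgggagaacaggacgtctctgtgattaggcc
Mrc1 (chr2:14229164-14229463, plus strand): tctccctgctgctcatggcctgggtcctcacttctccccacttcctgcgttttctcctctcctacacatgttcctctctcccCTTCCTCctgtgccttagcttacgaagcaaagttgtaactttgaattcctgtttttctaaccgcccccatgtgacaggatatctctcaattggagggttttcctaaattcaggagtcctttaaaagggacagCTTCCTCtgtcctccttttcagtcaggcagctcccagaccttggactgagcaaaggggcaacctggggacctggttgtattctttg
Itgam (chr7:128062390-128062689, plus strand): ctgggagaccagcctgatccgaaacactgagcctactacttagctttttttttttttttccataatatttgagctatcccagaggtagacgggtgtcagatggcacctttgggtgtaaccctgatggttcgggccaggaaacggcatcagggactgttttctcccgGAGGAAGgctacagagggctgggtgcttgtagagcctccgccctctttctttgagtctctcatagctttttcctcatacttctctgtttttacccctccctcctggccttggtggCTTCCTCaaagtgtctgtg
Over both strands Mrc1 and Itgam each held 2 such matches, C1qc held 1, and C1qb, Lyz2 and Cd68 held 0. Of all 32851 promoters in that table, 13.6% held the motif. The core bound by MAF factors (TGCTGAC) and the C/EBP palindrome (TTGCGCAA) were in 0 of the 6, against 4.67% and 0.183% of all promoters. These are matches of letters and not measured binding sites.

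The tongue libraries held 36832717 to 92249098 reads. Sorted cell libraries held 7221013 to 15689559 reads in biallelic and 2938462 to 7887305 reads in wild type animals. Values are RPM, reads scaled to the library total without correction for gene length. A count of 3 reads stood at 0.0325 to 0.0814 RPM in the tongues and at 0.191 to 1.02 RPM in the sorted cells, which covers counting error only. Plagl1 checked the labels, and every biallelic library lay above every wild type library (log2 fold change 1.74 in sorted cells, 1.20 in E13.5, 1.03 in P0 and 1.30 in P20 tongues). Limma called Plagl1 at P0 alone (adjusted p = 0.0469). Its adjusted p was 0.423 in sorted cells, 0.992 at E13.5 and 0.99997 at P20. A gene that was not called may therefore still differ between the genotypes. Among the sorted libraries wild type animals 7, 8 and 9 lay far from the rest on principal component 1, with scores of 64.3, 79.8 and 89.8 where the other 8 ranged from -52.2 to 17.2. For 4 biallelic animals the labels name 2 libraries and the table has 1 column, which is so for no wild type animal.

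In the sorted costal cells all 10 macrophage genes were far above the detection floor in every animal. Together they held 0.854% to 1.80% of all reads in biallelic animals and 0.776% to 1.45% in wild type animals. The 10 listed genes of a chondrocyte list, led by Col2a1, the main collagen of cartilage, summed to 343 to 954 RPM in biallelic and 209.6 to 603 RPM in wild type animals, less than the macrophage genes in each animal. The genes of the gate were detected, Cd24a at 48.7 ± 5.71 RPM in biallelic (SD, n = 6) and 40.7 ± 9.22 RPM in wild type animals (SD, n = 5), and Cd200 at 15.5 ± 6.29 RPM in biallelic and 12.5 ± 4.75 RPM in wild type animals. Of 7 genes on the list of prehypertrophic and gate genes, Cd24a, Cd200 and Runx2 passed the filter on low values, and Ihh, Pth1r, Col10a1 and Sp7, which mark prehypertrophic to hypertrophic cells or osteoblasts, did not. Of the reads of the 10 genes Arg1 took 51.8% and Cd14 21.2% on average, both shared with other cell types, and these sums are not corrected for gene length. In bulk RNA fewer cells of a type and less RNA per cell cannot be told apart.

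Arg1 (chromosome 10, 24915208 to 24927470, GRCm38), the arginase that competes with nitric oxide synthase for arginine, was the most abundant of the 10 in the sorted cells. Biallelic animals had 2423 RPM at the lowest, 7306 at the median and 11512 at the highest, against 2838, 4602, 4003, 8490.1 and 8396 RPM in wild type animals. Biallelic animal 5 and wild type animal 7 were the lowest, and the groups overlapped over most of their range (log2 fold change 0.33, SE 0.39). Cd14 (chromosome 18, 36725074 to 36726736), the co-receptor that hands bacterial lipopolysaccharide to Tlr4, came next. Its biallelic values ran from 2352 over a median of 2635 to 3107 RPM, against 2187, 2331, 1669, 2524 and 2111 RPM in wild type animals. It was the steadiest of the 10, with a coefficient of variation of 11.2% in biallelic and 14.7% in wild type animals, against 43.1% and 46.1% for Arg1.

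Per kilobase of exon the order of wild type levels was Arg1 (2543 RPM per kb), Cd14 (1249.5), Lyz2 (699.9), Cd68 (343), C1qb (283), Itgam (86.6), C1qa (84.2), Csf1r (81.4), C1qc (54.2) and Mrc1 (15.3). Neighbours whose means differed by less than their SDs added were Arg1 and Cd14, Cd68 and C1qb, Itgam and C1qa, C1qa and Csf1r, and Csf1r and C1qc.

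The receptors had somewhat higher means in biallelic than in wild type sorted cells, and none passed the test. Csf1r (chromosome 18, 61105572 to 61132149) ranged from 549.8 over a median of 626 to 861 RPM in biallelic animals, against 441, 448, 291, 572 and 598 RPM in wild type animals. Wild type animal 9 was the lowest of all 11, and wild type animals 10 and 11 lay among the biallelic values. Its log2 fold change was 0.51 (SE 0.19, limma p = 0.019, adjusted p = 0.423). The 3′ end of Csf1r lies in the span of Hmgxb3 on the opposite strand (61131279 to 61177050), and reads of the overlap cannot be told apart without the counter's strand setting. Cd14 differed by 0.31 (SE 0.17, adjusted p = 0.456). Mrc1 (chromosome 2, 14229414 to 14332057), the mannose receptor that takes up glycoproteins, stood between 87.2 and 139 RPM with a median of 109.8 in biallelic animals, against 83.8, 51.4, 84.1, 152 and 115 RPM in wild type animals. Both its lowest and its highest value belonged to a wild type animal, and the difference was 0.26 (SE 0.25). Itgam (chromosome 7, 128062640 to 128128160), the CD11b chain of complement receptor 3, ranged from 274 over a median of 572 to 725 RPM in biallelic animals, against 318, 306, 229, 577 and 746 RPM in wild type animals (0.40, SE 0.31). Its low end was formed by 1 biallelic and 3 wild type animals.

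Of the lysosomal genes Cd68 had a higher mean in biallelic animals and Lyz2 nearly equal means, and neither was called. Cd68 (chromosome 11, 69664213 to 69666153), a glycoprotein of lysosomes, was at 479 over a median of 536 to 673 RPM in biallelic animals, against 492.7, 329.6, 283, 570.0 and 478 RPM in wild type animals (log2 fold change 0.43, SE 0.19, limma p = 0.0433, adjusted p = 0.426). Wild type animals 8 and 9 were its lowest. Lyz2 (chromosome 10, 117277334 to 117282274), the lysozyme of macrophages and neutrophils, ranged from 583 to 1296 RPM with a median of 991 in biallelic animals, against 628, 754, 982, 1119.5 and 1121 RPM in wild type animals. Its groups covered nearly the same range (0.018, SE 0.24).

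C1qa, C1qb and C1qc encode the chains of C1q, which starts the classical complement pathway, and lie side by side on chromosome 4 between 136880129 and 136898803. C1qb was at 224 over a median of 267 to 557 RPM in biallelic animals, against 459, 294, 279, 296 and 212 RPM in wild type animals. C1qa was at 44.7 over a median of 61.0 to 128 RPM in biallelic animals, against 161, 88.4, 72.8, 74.7 and 41.2 RPM in wild type animals. C1qc was at 74.2 over a median of 92.3 to 192 RPM in biallelic animals, against 154, 87.9, 115, 98.4 and 67.4 RPM in wild type animals. All 3 chains were highest in biallelic animal 5 and wild type animal 7 and lowest in wild type animal 11. The log2 fold changes were -0.026 for C1qb (SE 0.24), -0.27 for C1qa (SE 0.32) and -0.016 for C1qc (SE 0.26).

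**Figure D1:**
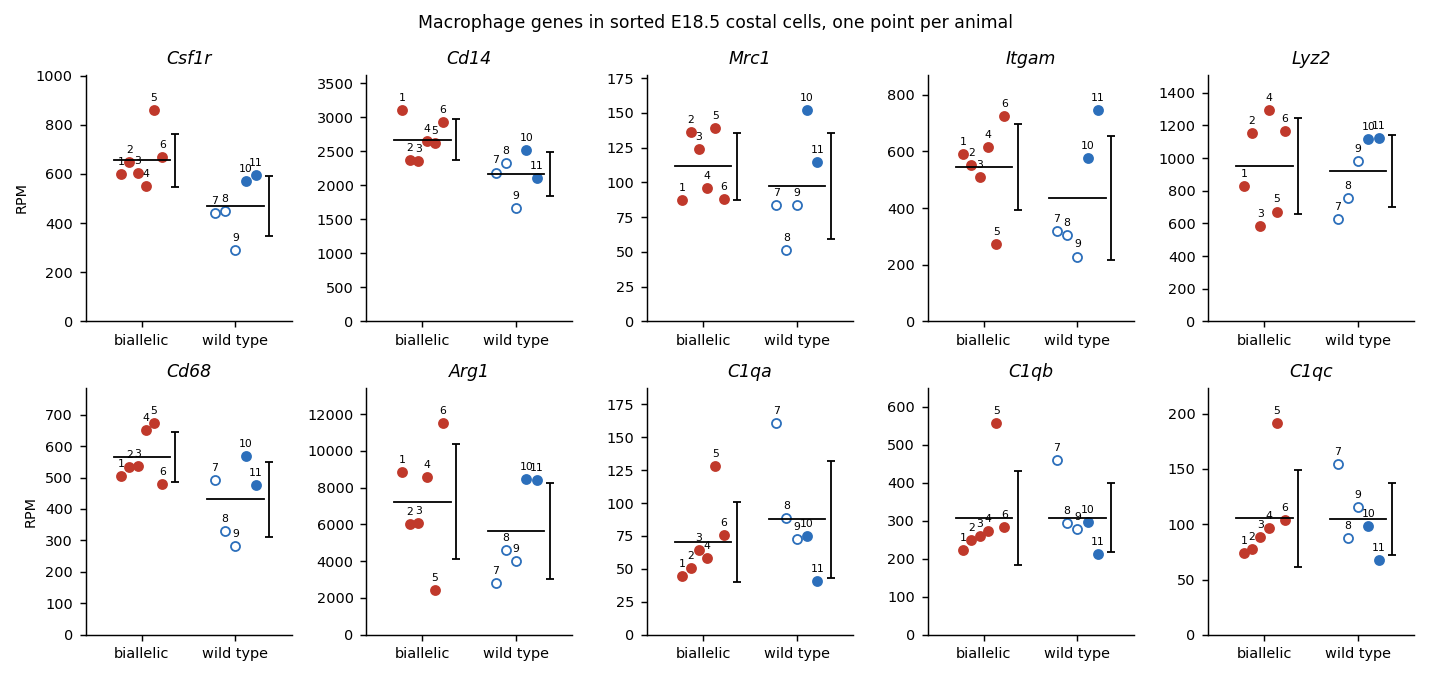
Level of each macrophage gene in RPM (linear axis from 0) in the sorted E18.5 costal cells, with 1 numbered point per animal, the mean as a line and the SD as a bar; open symbols are wild type animals 7, 8 and 9. Biallelic and wild type points overlap for all 10 genes, and biallelic animal 5 is at 274 RPM for Itgam and 557 RPM for C1qb.

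Of the 10 macrophage genes, 7 had higher and 3 had lower means in biallelic sorted cells, and limma called 0, as it did 0 of 11127 genes tested (0%). Over all genes tested, 40.8% had higher means. The median log2 fold change was 0.29 for the 10 genes and -0.11 for all genes. An unadjusted p under 0.05 was reached by 2 of the 10 (Csf1r and Cd68) and by 11.7% of all genes, and voom also called 0 of the 10. For 0 of the 10 did the groups separate, where 0.153% of all genes separated with higher and 0.719% with lower biallelic values. The differences moved with the 3 wild type animals that lay apart. Without animals 7, 8 and 9 only wild type animals 10 and 11 were left to set against the biallelic animals. Csf1r was then at 0.15, Cd68 at 0.10 and Cd14 at 0.20. Mrc1 (-0.27), Itgam (-0.33), Lyz2 (-0.30) and Arg1 (-0.37) took negative values, and C1qa (0.25), C1qb (0.23) and C1qc (0.29) positive ones. In that fit 0 of the 10 were called and 0 stood at an unadjusted p under 0.05, where 3.48% of all genes did. Centring the libraries on their medians put the median of all genes at 0.12 and 9 of the 10 genes higher.

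Over the 11 animals the 10 genes did not move as 1 block. The mean absolute difference between centred log2 patterns was smallest for C1qb and C1qc (0.09), then for Csf1r and Cd68 (0.20) and for C1qa with either other chain (0.21 each). It was widest for Arg1 and C1qa (1.01), while Arg1 and Itgam differed from each other by 0.28. Biallelic animal 5 and wild type animal 7, highest in C1q, had the least Arg1, and wild type animal 11, lowest in C1q, had 8396 RPM of Arg1. The libraries share a method and differ in depth, and these values describe 11 libraries.

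**Figure D2:**
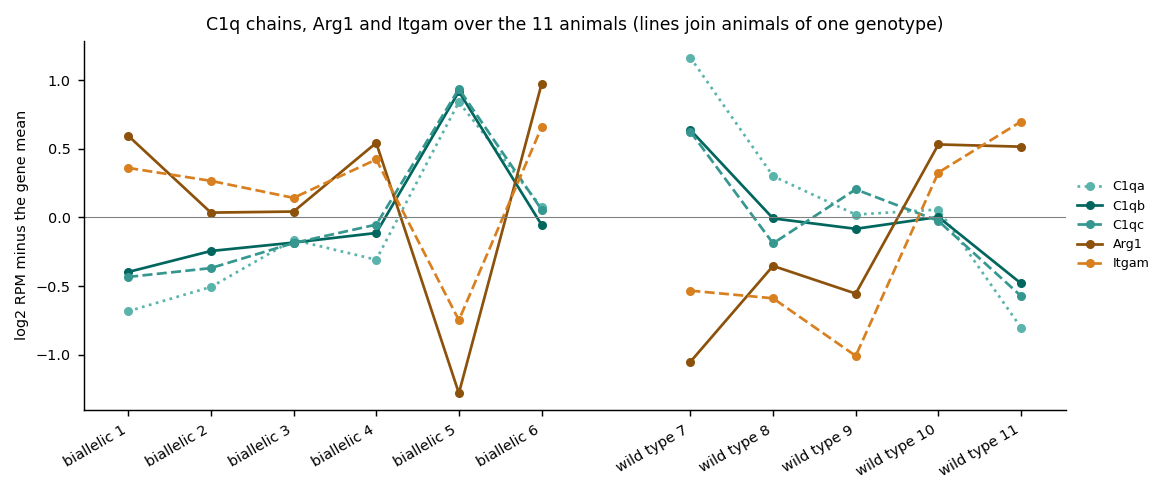
Log2 RPM minus the gene's mean over the 11 sorted libraries (y axis) for C1qa, C1qb, C1qc, Arg1 and Itgam in each animal (x axis, biallelic 1 to 6 and wild type 7 to 11); lines join animals and imply no order. The 3 C1q lines run together, and Arg1 and Itgam take the opposite side in biallelic animal 5 and wild type animal 7.

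Among 6281 other genes of at least 10 RPM, those nearest to the mean C1q pattern in the sorted cells were Vps72, Pdlim4, Gm12841, Ifi30, a lysosomal thiol reductase of antigen-presenting cells, and Ubxn1. They differed from it by 0.123 to 0.138 on the log2 scale over 11 animals, where the pattern itself departed from its mean by 0.332. The genes nearest to Lyz2 were Actr2 and Cap1, both regulators of actin filaments, Sec13, Pknox1 and 2310022B05Rik (0.117 to 0.151, against 0.358 for the pattern). In the 18 tongue libraries each gene was centred within its table, and 9569 other genes were searched. The nearest to C1q were Sparc, Pabpc4, Kcnt2, Smoc1 and Igsf10 (0.0932 to 0.123, against 0.191), and the nearest to Lyz2 were Sirt3, Zfp229, Bnc2, Ccdc93 and Rab3il1 (0.127 to 0.147, against 0.249). Whether matches this close stand out among so many genes was not tested.

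Further genes of the macrophage programme mostly had higher means in biallelic sorted cells, and again none was called. Of 17 tested tissue macrophage genes besides the 10, 13 had higher and 4 lower means (median 0.55). Fcgr1, the high-affinity IgG receptor, was at 1109 ± 365.5 RPM in biallelic animals (SD, n = 6) and 653 ± 429 RPM in wild type animals (SD, n = 5), and the chemokine gene Pf4 at 276 ± 84.2 RPM in biallelic and 330.4 ± 79.6 RPM in wild type animals. Among 21 genes of phagocytosis and lysosome 20 were higher (median 0.41), with the cathepsin gene Ctsb at 4411 ± 592 RPM in biallelic and 3308 ± 1191 RPM in wild type animals and Cybb, a subunit of the phagocyte oxidase, at 817 ± 259.5 RPM in biallelic and 504 ± 307 RPM in wild type animals. For inflammatory activation 13 of 14 were higher (median 0.29), with Ptgs2, which makes prostaglandins, at 2351 ± 665 RPM in biallelic and 1662 ± 404 RPM in wild type animals and Nos2, the inducible nitric oxide synthase, at 1111 ± 303 RPM in biallelic and 706 ± 316 RPM in wild type animals. Alternative activation genes were higher for 6 of 7 (median 0.27), among them Arg2 (0.36) and the interleukin-4 receptor gene Il4ra (0.37). Of 13 genes of complement and C1q receptors 9 were higher (median 0.24), with C3, the central complement protein, at 0.80 and the regulator Cd55 at -2.25. Cd55 stood at 1.75 ± 0.780 RPM in biallelic and 9.05 ± 5.26 RPM in wild type animals.

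These counts moved with wild type animals 7, 8 and 9 as well. Without them 8 of 17 tissue macrophage, 6 of 21 phagocytosis, 10 of 14 inflammatory, 3 of 7 alternative activation and 6 of 13 complement genes were higher in biallelic animals. The phagocytosis list summed to 19309.7 to 22924 RPM in biallelic animals, against 14026, 11446, 11747, 22459 and 22320.5 RPM in wild type animals 7 to 11. Markers of other leukocytes moved with the same animals. The neutrophil list summed to 807 to 1830.0 RPM in biallelic animals, against 2679.9, 2062, 2578, 1529.7 and 1528 RPM in wild type animals 7 to 11. Of its 13 tested genes 11 had lower means in biallelic animals (median -3.42), and without animals 7, 8 and 9 it was 9 of 13 (median -0.46). The mast cell list summed to 22.5 to 186 RPM in biallelic animals, against 332, 417, 203, 52.5 and 29.9 RPM in wild type animals 7 to 11. All 17 listed neutrophil genes and all 8 listed mast cell genes had reads in at least 1 sorted library. The part of these cells in the levels of Itgam, Lyz2 and Cd14 was not tested.

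The ligands of Csf1r did not follow the receptor. Csf1 was at 10.3, 13.6, 7.98, 13.7, 24.4 and 5.92 RPM in biallelic sorted cells, against 18.1, 26.6, 29.2, 13.7 and 10.2 RPM in wild type sorted cells. Its highest values were those of wild type animals 8 and 9, and the difference was -0.67 (SE 0.37, adjusted p = 0.467). Il34 had 0 or 1 read in 10 of the 11 sorted libraries and 17 reads in wild type animal 8. Of 13 tested genes of the Csf1r pathway 6 were higher and 7 lower in biallelic sorted cells (median -0.039). The signalling adaptor gene Fcer1g, at 495 ± 86.2 RPM in biallelic and 493.2 ± 121 RPM in wild type animals, had nearly equal means. Cebpb, a myeloid transcription factor, was at 7.34 ± 4.96 RPM in biallelic and 29.1 ± 16.0 RPM in wild type animals, a difference of -2.05 that did not pass the threshold (adjusted p = 0.423).

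In whole tongue the same 10 genes were low, and each was higher in every sorted library than in every P20 tongue library, as were 27.2% of the 13678 genes that passed the filter in at least 1 of these tables (20% with the reads of listed genes as the denominator, where it again held for all 10). The tables were normalized separately and differ in extraction, library method, tissue and age, so these levels stand side by side without a test and the sources of their differences cannot be told apart. Wild type animals had 2164 RPM of Cd14 in sorted cells and 0.685 RPM in P20 tongue, a 3158-fold ratio, and 5666 and 12.2 RPM of Arg1, a 463-fold ratio. Mrc1 stood at the other end, at 97.3 RPM in sorted cells and 17.2 RPM in P20 tongue, a 5.67-fold ratio. With the reads of listed genes as the denominator the ratios were 1925, 275 and 3.38.

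Ratios within a library do not depend on its scale. Hmgxb3, which overlaps the 3′ end of Csf1r, averaged 25.9 RPM at E13.5, 19.96 RPM at P0 and 27.7 RPM at P20. These means lay above every Csf1r value of the same tongue stage. In sorted cells Hmgxb3 averaged 19.4 RPM, below every Csf1r value. The part of Hmgxb3 reads in the levels of Csf1r, and so in these ratios, was not tested. Relative to Csf1r, Cd14 stood at 2.12 ± 0.28 on the log2 scale in the sorted libraries (SD, n = 11), against -5.21 ± 0.71 at P0 and -4.20 ± 0.27 at P20 (SD, n = 6 each). Arg1 over Csf1r was 3.41 ± 0.76 in sorted cells, against -1.91 ± 0.42 at E13.5, -0.88 ± 0.65 at P0 and -0.040 ± 0.42 at P20. Mrc1 over Csf1r ran the other way, at -2.45 ± 0.40 in sorted cells and 0.48 ± 0.33, 1.004 ± 0.18 and 0.39 ± 0.19 at the successive tongue stages. For the ratios of Cd14, Arg1 and Mrc1 to Csf1r, 0 sorted libraries overlapped the tongue libraries. The share of all genes whose ratio to Csf1r separates so was not counted. Itgam over Csf1r was -0.26 ± 0.53 in sorted cells, against -2.50 ± 0.68, -3.11 ± 0.19 and -2.44 ± 0.39 in the tongue, where 1 sorted library reached the tongue range. Lyz2 over Csf1r was 0.71 ± 0.58 in sorted cells and overlapped P20 (-0.033 ± 0.18). C1qb over Csf1r was -0.90 ± 0.54 and overlapped P20 (-1.38 ± 0.27). Cd68 over Csf1r was -0.18 ± 0.24 and overlapped E13.5 (-1.21 ± 0.92), but not P0 (-2.72 ± 0.23) or P20 (-3.18 ± 0.27). Of the reads of the 10 genes, Arg1 took 28.4% to 63.9% and Mrc1 0.487% to 1.63% in sorted cells, while at P20 Arg1 took 13.54% to 21.6% and Mrc1 21.7% to 23.3%.

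**Figure D3:**
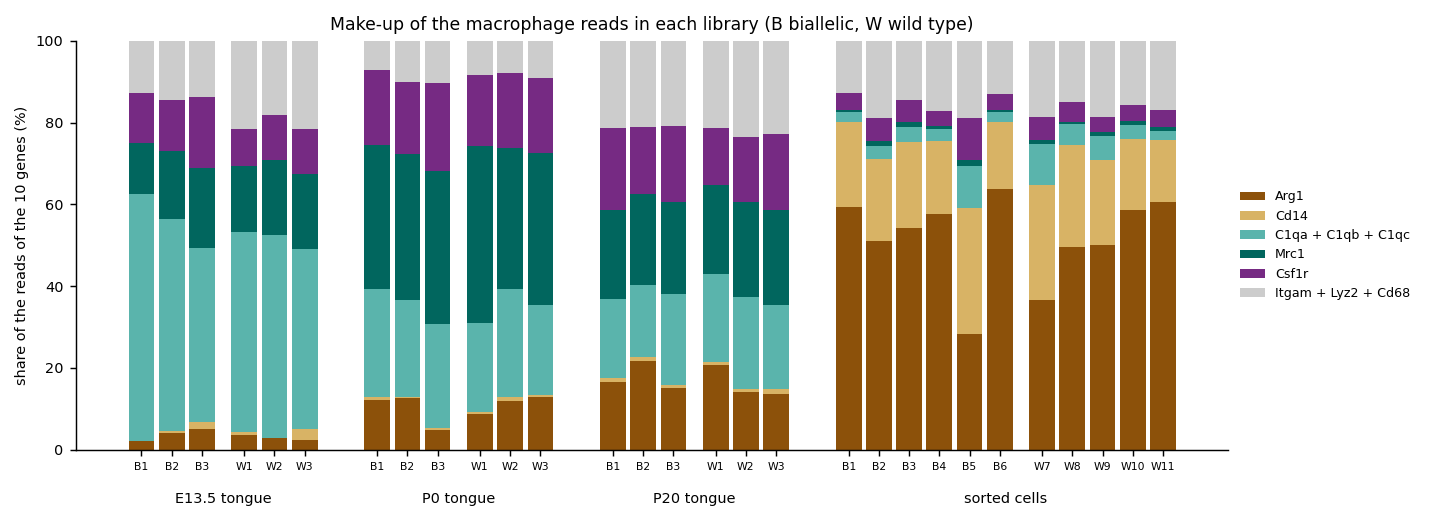
Share of the reads of the 10 macrophage genes (y axis, percent) that fell on Arg1, Cd14, the C1q chains, Mrc1, Csf1r and the rest in each of the 29 libraries (biallelic left of wild type, numbered by replicate or animal). Arg1 takes 28.4% to 63.9% in the sorted libraries, and the C1q chains take 42.7% to 60.3% at E13.5.

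The chains of C1q also stood in different proportions in the tongue and the sorted cells, where library method, tissue and age again cannot be told apart. C1qb over C1qa was 2.15 ± 0.16 in biallelic sorted cells (SD, n = 6) and 1.91 ± 0.32 in wild type sorted cells (SD, n = 5) on the log2 scale. In biallelic tongues it was 0.42 ± 0.34 at E13.5, 0.67 ± 0.11 at P0 and -0.054 ± 0.16 at P20, against 0.47 ± 0.28, 0.65 ± 0.20 and -0.027 ± 0.036 in wild type tongues (SD, n = 3 each). Every sorted library lay above every tongue library in this ratio. C1qc over C1qa was 0.60 ± 0.12 in biallelic and 0.34 ± 0.36 in wild type sorted cells. It was -0.66 ± 0.47, 0.59 ± 0.023 and 0.11 ± 0.18 in biallelic tongues of the successive stages, against -0.33 ± 0.37, 0.59 ± 0.12 and 0.069 ± 0.12 in wild type tongues.

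Within the tongue, several of the 10 genes were higher after birth than at E13.5. With the genotypes pooled, every P0 library lay above every E13.5 library for Csf1r, Mrc1, Itgam, Arg1 and C1qc (5 of 10 genes), as for 33.2% of all genes that passed the filter at either stage. Every P20 library lay above every E13.5 library for these 5 and for Cd14 and Lyz2 (7 of 10, against 40.1% of all genes). Every P20 library lay above every P0 library for Itgam, Lyz2 and Arg1 (3 of 10, against 32.8% of all genes), and of these 3 for Lyz2 alone with the reads of listed genes as the denominator. Cd14 passed the filter at no tongue stage and is not in these shares. E13.5 tongues were extracted with another reagent than P0 and P20 tongues, and stage and extraction cannot be told apart between them. Arg1 was at 0.393, 0.869 and 1.25 RPM in biallelic and 0.596, 0.687 and 0.423 RPM in wild type tongues at E13.5, at 6.39, 7.39 and 2.77 against 5.97, 7.79 and 7.83 RPM at P0, and at 10.3, 13.6 and 13.3 against 15.9, 12.2 and 8.57 RPM at P20. It had the widest ratio of wild type P20 to E13.5 means of the 10, 21.5-fold. Lyz2 was at 1.29, 1.57 and 2.23 RPM in biallelic and 1.84, 2.21 and 2.11 RPM in wild type tongues at E13.5, at 1.30, 2.90 and 3.18 against 2.32, 2.01 and 2.37 RPM at P0, and at 10.6, 10.4 and 14.2 against 12.1, 15.2 and 11.2 RPM at P20. Its levels at E13.5 and P0 overlapped, and the step lay between P0 and P20. Its neighbour Lyz1, whose transcript is 95.8% identical over 1264 aligned bases, had 0 reads in all E13.5 and P0 tongues, 15 to 21 reads in P20 tongues and 0 to 13 reads in sorted cells, and the division of reads between these copies is uncertain.

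Csf1r and Mrc1 took their step by P0. Every P20 value of Itgam lay above every P0 value in RPM, as for 32.8% of all genes. With the reads of listed genes as the denominator its P0 and P20 values overlapped. The part of reads from the overlapping gene Hmgxb3 in the tongue levels of Csf1r was not tested. Csf1r was at 2.24, 2.63 and 4.33 RPM in biallelic and 1.554, 2.54 and 2.05 RPM in wild type tongues at E13.5, at 9.68, 10.2 and 12.3 against 11.8, 12.0 and 11.1 RPM at P0, and at 12.5, 10.3 and 16.4 against 10.7, 13.8 and 11.8 RPM at P20, so that P0 and P20 overlapped. Mrc1 was at 2.31, 3.50 and 4.87 RPM in biallelic and 2.74, 4.23 and 3.38 RPM in wild type tongues at E13.5 and at 13.6, 13.9 and 19.7 against 16.7, 20.1 and 14.7 RPM at P20, and its mean was highest at P0. Itgam averaged 0.410 ± 0.204 RPM in biallelic and 0.541 ± 0.250 RPM in wild type tongues at E13.5, 1.179 ± 0.216 and 1.42 ± 0.130 RPM at P0, and 2.05 ± 0.729 and 2.74 ± 0.695 RPM at P20 (SD, n = 3 each). Cd14 had few reads, 0 to 24 reads in E13.5 libraries, 10 to 44 in P0 libraries and 29 to 39 in P20 libraries. Of the ligands, Csf1 spanned 1.62 to 2.82 RPM in E13.5 tongues, 6.12 to 7.68 RPM in P0 tongues and 6.57 to 9.82 RPM in P20 tongues. Il34 had 3 to 14 reads per library at E13.5, and stood at 2.87 to 4.82 RPM at P0 and 13.2 to 16.9 RPM at P20.

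**Figure D4:**
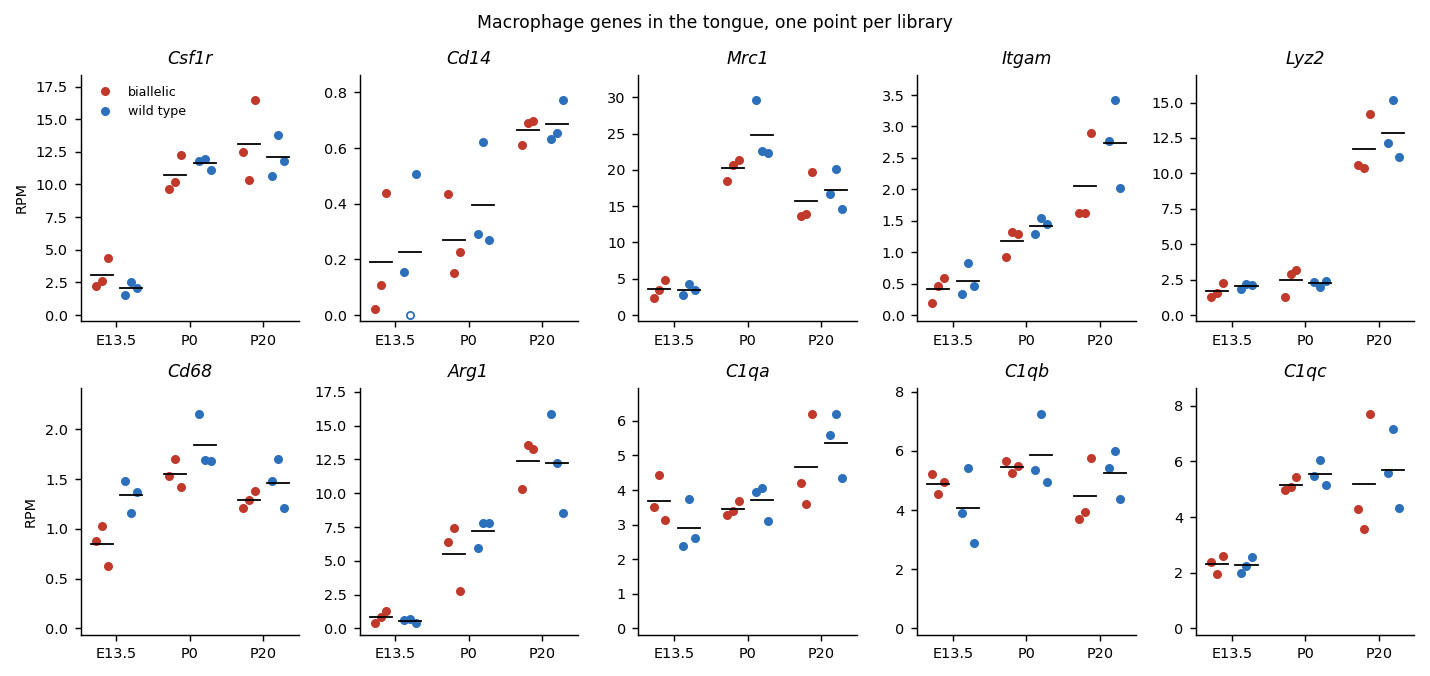
Level of each macrophage gene in RPM (linear axis from 0) in tongues at E13.5, P0 and P20, with 1 point per library and the mean of each group as a line; an open symbol marks a library with 0 reads. Arg1 spans 0.393 to 1.25 RPM at E13.5 and 8.57 to 15.9 RPM at P20, whereas Cd68 spans 0.625 to 1.48 RPM at E13.5 and 1.21 to 1.70 RPM at P20.

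With the genotypes pooled, Cd68, C1qa and C1qb overlapped between all tongue stages. Within each genotype every P0 value of Cd68 lay above every E13.5 value, and in wild type tongues every P20 value of C1qa lay above those of both earlier stages. In biallelic tongues every P20 value of Cd68 lay below every P0 value and above every E13.5 value. Every P0 value of C1qb lay above every E13.5 value there. The share of all genes that separate so within a genotype was not counted. Upward, it cannot be below the share with the genotypes pooled. That share was 33.2% for P0 over E13.5, 40.1% for P20 over E13.5 and 32.8% for P20 over P0. Cd68 averaged 1.553 ± 0.143 RPM in biallelic and 1.84 ± 0.272 RPM in wild type tongues at P0 and 1.29 ± 0.0861 and 1.46 ± 0.244 RPM at P20 (SD, n = 3 each). C1qb averaged 4.90 ± 0.345 RPM in biallelic and 4.07 ± 1.27 RPM in wild type tongues at E13.5, 5.47 ± 0.200 and 5.85 ± 1.24 RPM at P0, and 4.47 ± 1.14 and 5.26 ± 0.812 RPM at P20. Per kilobase of exon the wild type order was led by C1qb (3.74 RPM per kb) and C1qa (2.80) at E13.5, by C1qb (5.38) and Mrc1 (3.90) at P0 and by Lyz2 (9.75) and Arg1 (5.49) at P20. The leading pair differed by less than their SDs added at E13.5 and P0, and by more at P20. Itgam and Cd14 held the last places at every stage, at 0.108 to 0.545 RPM per kb for Itgam and 0.131 to 0.396 for Cd14.

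In the tongue, with 3 libraries per genotype and stage, no tested member was called between genotypes. At E13.5, 7 of the 10 genes passed the filter and 0 were called, as were 0 of 11869 genes (0%). No member reached an unadjusted p under 0.05, and voom called 0. Of the 7, 5 had higher and 2 lower means (median 0.026, against -0.057 for all genes). Cd68 was at 0.878, 1.03 and 0.625 RPM in biallelic tongues, against 1.48, 1.16 and 1.37 RPM in wild type tongues, without overlap (log2 fold change -0.69, SE 0.41, adjusted p = 0.9922). It was the 1 gene of the 7 to separate, and over all genes 7.69% separated with lower and 2.43% with higher biallelic values. Its counts were 30 to 65 reads per library. Csf1r differed by 0.55 (SE 0.34), C1qa by 0.36, C1qb by 0.31, C1qc by 0.026 and Lyz2 by -0.31. Biallelic replicate 3 had the highest Csf1r and Mrc1 of the stage and a score of 47.5 on principal component 1, where the other 5 ranged from -19.9 to -1.59. Without it Csf1r was at 0.28, Mrc1 at -0.26 and Cd68 at -0.48.

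At P0, 9 of the 10 genes passed the filter and 0 were called, where 2 of 12489 genes were (0.0160%), 1 in each direction (0.00801% each). No member reached an unadjusted p under 0.05, and voom called 0. Of the 9, 8 had lower means and 1 higher, with a median of -0.12, while 60.7% of all genes had higher means and their median was 0.038. Mrc1 was at 18.47, 20.7 and 21.4 RPM in biallelic tongues, against 29.6, 22.6 and 22.4 RPM in wild type tongues. All 3 biallelic values lay below all 3 wild type values, the 1 gene of the 9 to separate, where 3.07% of all genes separated with lower and 5.83% with higher biallelic values. Its difference was -0.29 (SE 0.14, limma p = 0.0663, not called after adjustment). Arg1 differed by -0.49 (SE 0.35), and by -0.054 without biallelic replicate 3. Itgam differed by -0.28, Cd68 by -0.24, Csf1r by -0.12, C1qa by -0.10, C1qb by -0.077 and C1qc by -0.10. Lyz2, the 1 gene with a higher mean, was at 0.041. Of 10 further tissue macrophage genes tested 7 were lower (median -0.13), among them the scavenger receptor gene Stab1 at 28.8 ± 2.12 RPM in biallelic and 32.5 ± 3.17 RPM in wild type tongues (SD, n = 3 each). All 7 tested complement genes were lower (median -0.22). Serping1, the inhibitor of the C1 complex, was at 8.86 ± 0.758 RPM in biallelic and 13.4 ± 2.07 RPM in wild type tongues (-0.59, not called).

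At P20, 9 of the 10 genes passed the filter and 0 were called, as were 0 of 12693 genes (0%). No member reached an unadjusted p under 0.05, and voom called 0. Of the 9, 7 had lower means and 2 higher (median -0.17, against -0.015 for all genes). For 0 of the 9 did the groups separate, where 3.14% of all genes separated with higher and 3.74% with lower biallelic values. Itgam was at 1.63, 1.63 and 2.89 RPM in biallelic tongues, against 2.77, 3.42 and 2.03 RPM in wild type tongues (-0.44, SE 0.29). C1qb was at 3.69, 3.94 and 5.78 RPM in biallelic tongues, against 5.41, 5.99 and 4.39 RPM in wild type tongues (-0.25, SE 0.20). Biallelic replicate 3 was the highest of its group for both, and also for Csf1r, Mrc1, Lyz2, C1qa and C1qc. Its score on principal component 1 was 39.8, where the other 5 ranged from -22.4 to 10.1. Without it 0 of the 9 genes had higher means, and 4 stood at an unadjusted p under 0.05, namely Itgam (-0.72), C1qc (-0.51), C1qb (-0.45) and C1qa (-0.45), with 0 called. Of all 12693 genes 538 (4.24%) stood at an unadjusted p under 0.05 in that fit, and the median over all genes was 0.012. Of 10 further tissue macrophage genes 9 were lower (median -0.058, or 10 at -0.19 without that replicate), with the chemokine receptor gene Cx3cr1 at 55.4 ± 8.39 RPM in biallelic and 56.3 ± 1.62 RPM in wild type tongues (SD, n = 3 each). Endothelial genes were higher for 10 of 10 (median 0.36, or 8 at 0.14 without that replicate). Without it 0 of 8 pan-leukocyte genes, 0 of 5 dendritic cell and MHC class II genes (median -0.87) and 1 of 10 skeletal muscle genes were higher, against 1, 1 and 4 with it, and their part in the values of the macrophage genes was not tested. C3 was at 3.93 ± 1.29 RPM in biallelic and 9.12 ± 2.61 RPM in wild type tongues (-1.23, SE 0.30, not called).

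**Figure D5:**
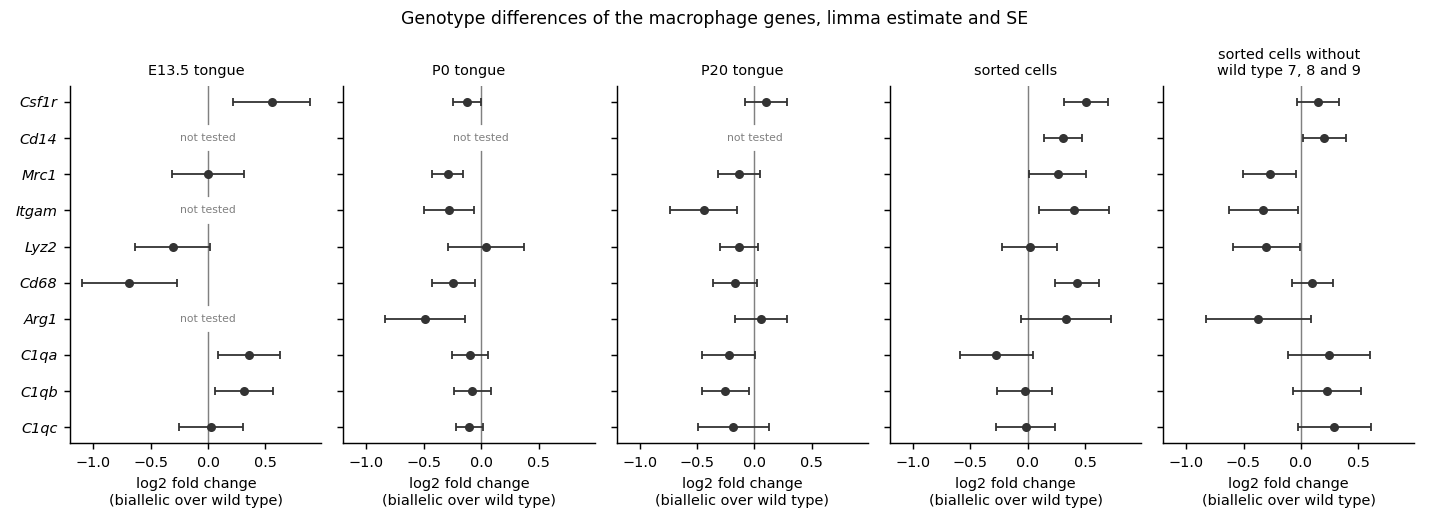
Log2 fold change, biallelic over wild type (x axis), of each macrophage gene (y axis) as limma's estimate with its SE, in the 3 tongue stages, the sorted cells and the sorted cells without wild type animals 7, 8 and 9. No estimate passes the threshold. In the last panel, with wild type animals 10 and 11 alone left of their genotype, 7 of the 10 genes take the other sign.

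Whether the genotype difference changed between stages was tested for the 7 members tested at every tongue stage. Limma called 0 of the 7 and 0 of 10929 genes (0%) in each contrast between stages, and 0 of the 7 reached an unadjusted p under 0.05. The lowest p was that of Csf1r, whose genotype difference at P0 minus that at E13.5 was -0.68 on the log2 scale (SE 0.32, limma p = 0.0525, adjusted p = 0.901). For Cd68 the same contrast gave 0.44 (SE 0.32).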

How the data were processed

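The authors deposited 4 tables of log2 values (log2 RPM per gene, not corrected for length). Reads were trimmed with Trim Galore 0.4.2 and aligned to GRCm38 with TopHat2 2.1.0 (tongues) or HISAT2 (sorted cells), tools named per the submitters' processing notes. No source used here gives the read counter, its strand setting or whether introns were counted. Absent genes carry 0.9 reads. Below 1000 reads, 100% of the values corresponded to whole reads, to within 0.05. The 33 labelled samples fill 29 columns, 1 per animal. Library pairs of a group differed beyond sampling noise. A gene was tested if it had at least 1 RPM in 3 of the 6 tongue libraries or 5 of the 11 animals with sorted cells. The test was limma 3.58.1 (R 4.3.3) with a mean-variance trend, biallelic minus wild type, Benjamini-Hochberg adjusted over all genes tested, threshold 0.05. One fit of the 18 tongue libraries tested differences between stages. The limma step was tested on simulated data. The 0.9 reads, with no further pseudocount, understate changes of genes near 0. Positions and exon lengths come from GENCODE M21 (GRCm38).

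The members and lists were chosen with earlier results of these data known. Named are all members, Lyz1, Csf1, Il34 and Plagl1, from each list described the 2 tested genes of smallest p and the 2 of highest level, and the 5 genes of most similar pattern. Which of these appear in the text was chosen after their values were seen, and Runx2, Ihh, Pth1r, Col10a1, Sp7 and Hmgxb3 fall outside that rule. C2, on 2 rows of the table of sorted cells, was counted by its first. P-values set the difference between groups against the spread between these samples.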

Additional observations from a re-analysis of the deposited data

Results flagged for a closer look

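In the sorted cells 20 groups (10 genes, 2 genotypes) were examined for a single animal far from the others of its genotype, and 3 had one, where chance gives about 1 in 20. All 3 were biallelic animal 5. It had 274.2 RPM of Itgam, against 508 to 725 RPM in the other 5 biallelic animals. It had 557.1 RPM of C1qb, against 224 to 285 RPM, and 191.5 RPM of C1qc, against 74.2 to 104 RPM. C1qb and C1qc followed each other over all 11 animals. The same animal had the lowest Arg1 of all 11 (2423 RPM), the lowest neutrophil list sum (807 RPM) and the highest mast cell list sum of the biallelic animals (186 RPM), and the part of these in its values was not tested.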

How the results depend on the processing

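The count of macrophage genes called was 0 in each table and between stages under every alternative run. Outside the runs that left out 1 replicate, 231 values kept their direction and side of the threshold and 11 changed sign. With voom Mrc1 at E13.5 was at -0.010. Without wild type animals 7, 8 and 9 the sorted cells gave Mrc1 -0.27, Itgam -0.33, Lyz2 -0.30, Arg1 -0.37, C1qa 0.25, C1qb 0.23 and C1qc 0.29. With listed genes as the denominator Lyz2 was at -0.044, and with median centring C1qb was at 0.20 and C1qc at 0.21. With log2(RPM + 1), which pulls low values together, C1qb over C1qa at P0 in biallelic tongues was 0.54 and C1qc over C1qa 0.47. Leaving out single replicates changed a sign in 30 of 260 values, and the ranges of the genes concerned were -0.26 to 0.28 (Mrc1) and -0.065 to 0.14 (C1qc) at E13.5, -0.20 to 0.45 (Lyz2) and -0.19 to 0.090 (C1qb) at P0, -0.078 to 0.26 (Csf1r), -0.18 to 0.27 (Arg1) and -0.51 to 0.044 (C1qc) at P20, and -0.11 to 0.15 (Lyz2), -0.21 to 0.13 (C1qb) and -0.21 to 0.14 (C1qc) in sorted cells. The causes of these changes were not tested. At 5 RPM no member was tested at E13.5. Leaving out replicates between stages, recounting lists without libraries that stood apart, and the listed-gene denominator for overlaps between tables were chosen after seeing the data. Replicate numbers are shared between genotypes, but same-numbered tongues did not deviate together throughout (r of 0.16, 0.04 and 0.14 at E13.5, -0.34, -0.49 and 0.36 at P0, -0.31, -0.29 and -0.65 at P20). With the replicate number as a block 0 members were called at each stage and between stages. For the sorted cells, a fit with a covariate for 10 or more reads of the Y-linked gene Ddx3y called 0 of the 10 genes. There 1 of the 10 stood at an unadjusted limma p under 0.05, as did 9.83% of all genes. Cd14, Itgam and Arg1 at E13.5 and Cd14 at P0 and P20 were too low for the test.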

Other observations

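Other leukocyte lists in the sorted cells were measured as well, and 0 of their genes were called. Of 10 pan-leukocyte genes 10 had higher means in biallelic animals (median 0.15), and 5 of 10 without wild type animals 7, 8 and 9. Cd53, a leukocyte membrane protein, was at 1245 ± 175 RPM in biallelic animals (SD, n = 6) and 1107 ± 523 RPM in wild type animals (SD, n = 5). Of 8 monocyte genes 7 were higher (median 0.29), and 3 without those animals, with the coagulation factor gene F13a1 at 1169.8 ± 282 RPM in biallelic and 1037 ± 447 RPM in wild type animals. Of 7 tested genes of osteoclasts, the bone-resorbing relatives of macrophages, 2 were higher and 5 lower (median -0.34), and 2 were higher without those animals. In the tongue, 10 of 13 tested phagocytosis genes were higher in biallelic mice at E13.5, 5 of 15 at P0 and 9 of 17 at P20, or 4 of 17 (median -0.14) without biallelic replicate 3 of P20.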
